A study of Homo sapiens with 4 samples.

Results

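Oxidative phosphorylation subunit genes are the nuclear genes for the protein parts of respiratory complexes I to IV and of ATP synthase, complex V. They were taken by symbol from the protein-coding RefSeq genes of GRCh38.p14: NDUFA, NDUFB, NDUFC, NDUFS or NDUFV with digits, NDUFAB1, SDHA to SDHD, CYC1, and symbols that start with UQCR, COX4 to COX8, ATP5F1, ATP5M or ATP5P. This gave 87 of 20037 genes, with 37 in complex I, 4 in complex II, 10 in complex III, 17 in complex IV and 19 in complex V. The study mapped FOXK1, a forkhead transcription factor, by ChIP-seq in HK-2 cells, an immortalised human line from proximal tubular epithelium. One culture had received 10 ng/ml TGF-β1, a cytokine of fibrosis, for 24 h, and the other was an untreated control. Each condition had 1 FOXK1 library, with peaks called against its own input library, and no replicate. The design text also speaks of transfection, without naming what was transfected, and peak lists do not show whether the cells expressed tubular markers.

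Complex I takes electrons from NADH and complex II from succinate. Complex III passes them on to cytochrome c, complex IV hands them to oxygen, and the proton gradient that builds up drives complex V to make ATP. The proximal tubule reabsorbs most of the filtrate and depends on this pathway for its ATP. FOXK1 is known from other cells for raising glycolysis enzymes. The title of the series names glycolysis and renal fibrosis, and respiration in mitochondria is the other main route to ATP.

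The TGF-β1 list held 439136 peaks and the control list 381700 on the assembled chromosomes, each with a median pileup height of 5. The height is the authors' value, a whole number for each peak that was read as the count of reads stacked over it. Read depth is unknown and there was 1 library a condition, so no test was possible, and heights given for both lists describe each list and do not measure a change. A peak within 1 kb of an end of a gene, inside or outside it, is called a boundary peak here. A strong peak was at or above the height of the 10000th highest peak of its list, which was 15 in the TGF-β1 list and 17 in the control list. Those minimums left 11342 and 11072 strong peaks.

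The promoters below belong to some of the subunit genes with a strong boundary peak in both lists, and each holds a short motif known from respiratory genes. Each line is a stretch before the transcription start, 5′ to 3′ on the strand of the gene, from RefSeq on GRCh38.p14. Capitals mark CGCATGCG (the core of an NRF1 site), CCGGAAG (ETS), TGACGTCA (CRE) and GGGCGG (SP), each also as its reverse complement.
NDUFS6, chr5:1801280-1801399, plus strand: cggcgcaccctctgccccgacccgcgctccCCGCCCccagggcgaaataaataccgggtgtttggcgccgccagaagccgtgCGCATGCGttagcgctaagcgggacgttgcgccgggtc
SDHD, chr11:112086723-112086842, plus strand: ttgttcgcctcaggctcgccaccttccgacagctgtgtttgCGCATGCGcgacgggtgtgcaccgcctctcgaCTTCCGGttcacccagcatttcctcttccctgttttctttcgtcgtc
UQCRH, chr1:46303578-46303697, plus strand: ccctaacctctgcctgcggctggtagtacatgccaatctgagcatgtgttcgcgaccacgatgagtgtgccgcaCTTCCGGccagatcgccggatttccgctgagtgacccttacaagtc
ATP5ME, chr4:674331-674450, minus strand: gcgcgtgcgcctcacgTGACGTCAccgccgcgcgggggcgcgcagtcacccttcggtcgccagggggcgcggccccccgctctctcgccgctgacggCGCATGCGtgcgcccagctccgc
ATP5MK, chr10:103396537-103396656, minus strand: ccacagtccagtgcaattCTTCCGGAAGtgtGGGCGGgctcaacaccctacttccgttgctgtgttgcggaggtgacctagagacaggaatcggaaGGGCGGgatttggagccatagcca
NDUFS6, SDHD and ATP5ME each hold the NRF1 core, and in ATP5MK an ETS motif overlaps its own reverse complement. COX4I1, NDUFA2 and ATP5F1E, also strong in both lists, are not printed. Of these motifs they held only GGGCGG, on either strand, in the 250 bases before the start. NDUFA11, strong in both lists as well, held none of them there.

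Most subunit genes had a boundary peak in both lists. The count was 73 of 87 genes in the TGF-β1 list (83.9%), against 74.6% of all protein-coding genes, and 82 of 87 in the control list (94.3%), against 75.3%. Both lists had a peak at 71 members (81.6%), against 64.0% of all genes. Of 9 members that are copies used mainly in other tissues, intronless copies or read-through genes, 4 had a peak in the TGF-β1 list and 5 in the control list. Whether reads from any of them fit more than one place was not tested. Without those 9, the counts were 69 and 77 of 78. A strong peak was found at 16 members in the TGF-β1 list (18.4%), against 15.7% of all genes, and at 19 in the control list (21.8%), against 17.0%, shares near those of all genes. At heights of 10 or more the counts were 34 (39.1%), against 32.7%, and 51 (58.6%), against 39.9%. Strong in both lists were 11 members (12.6%), against 11.9% of all genes. Among genes with a boundary peak the median height was 9 at members in the TGF-β1 list, against 9 at all genes, and 10.5 in the control list, against 10. The 47 members with a peak in both lists and a strong one in neither had heights of 4 to 14 in the TGF-β1 list and 5 to 16 in the control list. The members' genes were short, with a median length of 9242 bp against 24115 bp for all genes.

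**Figure D1:**
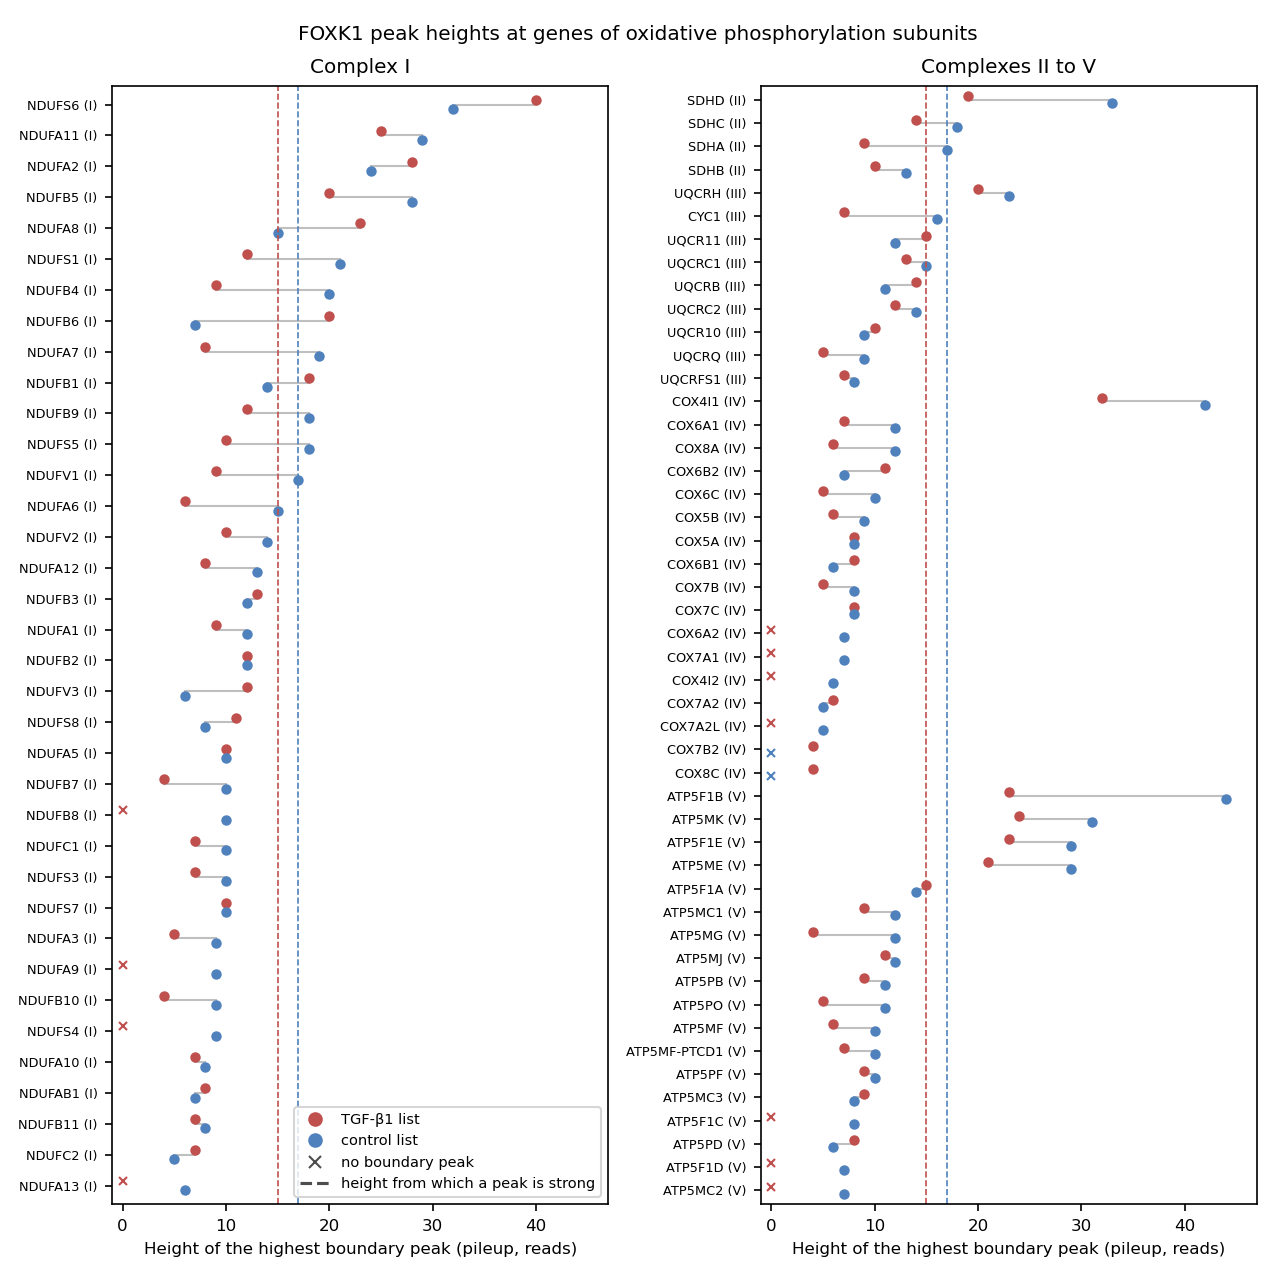
Height of the highest FOXK1 boundary peak at the 84 subunit genes with such a peak in at least 1 list (pileup, reads), in the TGF-β1 list (red) and the control list (blue), by complex in brackets. Crosses at 0 mark genes with no boundary peak in that list and dashed lines the heights of 15 and 17 from which a peak is strong; NDUFS6, COX4I1, ATP5F1B and SDHD reach 32 or more in at least 1 list.

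Complex I, the NADH dehydrogenase, had a boundary peak at 32 of its 37 genes in the TGF-β1 list (86.5%) and at 36 in the control list (97.3%). The shares of all genes were 74.6% and 75.3%. Medians over the genes with a peak were 10 and 11, against 9 and 10 at all genes. Strong peaks lay at 7 (18.9%) and 10 (27.0%) of the 37, against 15.7% and 17.0% of all genes. NDUFS6, a small zinc-binding subunit of the arm that holds the redox centres, had the highest TGF-β1 peak of all members, at 40, with 32 in the control list. These peaks differ in place. The TGF-β1 peak lay 659 bp before the start of NDUFS6, inside MRPL36, a mitochondrial ribosome gene that shares it, and the control peak ran from there across the start. Within 500 bp of an end of NDUFS6 the TGF-β1 height was 11.

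NDUFA2, an accessory subunit of the peripheral arm, had 28 in the TGF-β1 list and 24 in the control list, from peaks over its start and over the ends of IK and TMCO6. NDUFA11, an accessory subunit of the membrane arm, had 25 and 29 from a peak that reached VMAC, and NDUFB5, of the distal membrane arm, had 20 and 28 from a peak shared with MRPL47. The peaks of these 3 genes overlapped between the lists. All 4 genes of complex I that were strong in both lists thus shared their peak with another protein-coding gene, and 2 of those neighbours encode mitochondrial ribosome proteins.

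Other complex I genes passed the strong height in 1 list only. In the TGF-β1 list these were NDUFA8 (23, against 15 in the control list), NDUFB1 (18 against 14) and NDUFB6 (20 against 7), 3 accessory subunits. The NDUFB6 value is not a site of 1 list. Its TGF-β1 peak lay 584 bp beyond the downstream end of the gene, at TOPORS and SMIM27, where the control list had a peak of 27 that missed the window. In the control list they were NDUFS1, the largest core subunit, with 12 in the TGF-β1 list and 21 in the control list, NDUFB4 (9 and 20), NDUFA7 (8 and 19), NDUFB9 (12 and 18), NDUFS5 (10 and 18) and NDUFV1, the NADH-binding core subunit (9 and 17). At each of these 6 the weaker TGF-β1 peak overlapped the control peak. The NDUFA7 peak lay at the downstream end of the gene, beside CD320, and not at its start.

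Other core subunits of complex I had lower peaks at their ends. NDUFS7, NDUFS8 and NDUFV2 are known to carry iron-sulfur clusters. NDUFS3 had 7 in the TGF-β1 list and 10 in the control list, NDUFS7 10 and 10, NDUFS8 11 and 8, and NDUFV2 10 and 14, the last pair at different ends of the gene. None of these 4 passed the strong height in either list.

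Complex II, succinate dehydrogenase, had a boundary peak at all 4 of its genes in both lists, against 64.0% of all genes. In each of the 4 the peaks of the lists overlapped. SDHD, a membrane anchor, had 19 in the TGF-β1 list and 33 in the control list, and its peaks covered the start and reached TIMM8B, a chaperone of mitochondrial import. SDHC, the other anchor, had 14 and 18, SDHA, the FAD-binding catalytic subunit, 9 and 17, and SDHB, the iron-sulfur subunit, 10 and 13. The SDHB peaks lay inside the gene, and a window of 500 bp missed the control one. SDHC and SDHA were strong in the control list only and SDHD was strong in both. That made 1 and 3 of the 4 genes strong, against 15.7% and 17.0% of all genes.

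Complex III, the cytochrome bc1 complex, had peaks at 9 of 10 genes in each list (90.0%), against 74.6% and 75.3% of all genes. The median height was 12 in each. Strong peaks lay at 2 (20.0%) and 1 (10.0%) of the 10, against 15.7% and 17.0%. UQCRH, the hinge protein that helps cytochrome c dock, had 20 in the TGF-β1 list and 23 in the control list, from peaks over a start shared with LRRC41. UQCR11, a small subunit, had 15 and 12 and was the 1 strong member of the TGF-β1 list whose peak no other protein-coding gene shared. The core proteins UQCRC1 and UQCRC2 had 13 and 12 in the TGF-β1 list and 15 and 14 in the control list. CYC1, cytochrome c1, had 7 and 16, UQCRB 14 and 11, and UQCRFS1, the Rieske protein, 7 and 8 at places that did not overlap. The intronless copy UQCRHL had no boundary peak.

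Complex IV, cytochrome c oxidase, had the lowest median heights of the 5 complexes. Its genes had a peak in 13 of 17 cases in the TGF-β1 list (76.5%) and 15 in the control list (88.2%). The shares of all genes were 74.6% and 75.3%. Medians were 6 and 8, against 9 and 10 at all genes, and 4 of the 17 had another gene end within 1 kb. COX4I1, the widely expressed form of the regulatory subunit 4, stood apart with 32 in the TGF-β1 list and 42 in the control list, and no other gene of the complex passed 12 in either list. Its peaks overlapped each other. The TGF-β1 peak covered the start, which lies 151 bp from that of EMC8, a subunit of a membrane protein insertase, and the control peak began 306 bp inside the gene. The next highest in the TGF-β1 list were COX6B2, the testis form of its subunit, with 11 against 7 at opposite ends of the gene and none within 500 bp, and COX5A, COX6B1 and COX7C, each with 8, against 8, 6 and 8. Other copies known from particular tissues had a peak of 7 or less, each in 1 list. COX4I2, COX6A2 and COX7A1 had a boundary peak in the control list only, of 6, 7 and 7, and COX7B2 and COX8C in the TGF-β1 list only, of 4 each.

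Complex V, ATP synthase, had a peak at 15 of 19 genes in the TGF-β1 list (78.9%) and 18 in the control list (94.7%). The shares of all genes were 74.6% and 75.3%. Medians were 9 and 11, near the 9 and 10 of all genes. Strong peaks lay at 5 (26.3%) and 4 (21.1%) genes, against 15.7% and 17.0% of all genes, and 4 were strong in both. ATP5F1B, the catalytic beta subunit, had 23 in the TGF-β1 list and 44 in the control list, but these peaks lay 719 and 682 bp below its lower-coordinate end, within BAZ2A. Within 500 bp of an end of ATP5F1B the heights were 13 and 14. ATP5MK, a small membrane subunit, had 24 and 31 beside PDCD11, ATP5F1E, the epsilon subunit, 23 and 29 beside PRELID3B, and ATP5ME, subunit e, 21 and 29 beside MYL5. ATP5F1A, the alpha subunit, had 15 and 14, which just passed the strong height in the TGF-β1 list, and that peak lay 376 bp before its outer start. The gamma subunit ATP5F1C and the delta subunit ATP5F1D had a boundary peak in the control list only, of 8 and 7. ATP5MGL, an intronless copy, had none.

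In all, 11 members had a boundary peak in the control list only (12.6%), against 11.3% of all genes, so this share was near the general one. In the TGF-β1 list only there were 2 (2.30%), against 10.5%, and in neither 3 (3.45%), against 14.1%. The 11 heights ran from 5 to 10. No TGF-β1 peak overlapped any of those control peaks. That adds little, since these genes were picked for having no TGF-β1 peak within 1 kb of an end. Besides the 5 named under complexes IV and V they were NDUFA9 with 9, NDUFB8 with 10, NDUFS4 with 9, NDUFA13 with 6, COX7A2L with 5 and ATP5MC2 with 7. A window of 500 bp left no control peak at ATP5F1C, ATP5MC2, COX4I2 and COX7A1, and one of 2 kb gave TGF-β1 peaks of 4 at ATP5F1C and 5 at NDUFB8. Peaks this low are near the bulk of each list, in which the median height was 5. Where both lists had a peak, the highest peaks overlapped at 53 of 71 members (74.6%), against 71.8% of all genes with a peak in both, and at all 11 members that were strong in both.

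Some subunit genes also have starts well inside the outer ends used here. The RefSeq promoter table lists starts more than 1 kb inside the gene for 6 members. Within 1 kb of such a start of COX7A2L, a protein that helps complexes III and IV join into supercomplexes, lay peaks of 24 in the TGF-β1 list and 25 in the control list, 7740 bp from the outer end, where the values were no peak and 5. Both inner peaks are past the strong heights, though neither covers the start base. Peaks of 11 in each list covered an inner start of COX7A2, against 6 and 5 at its outer ends. At the inner starts of ATP5MC2, a gene of the membrane ring, the heights were 12 in the TGF-β1 list and 6 in the control list. NDUFA5 had 11 and 13 at an inner start, against 10 and 10 at its outer ends. COX7A2L and ATP5MC2, counted as without a TGF-β1 boundary peak, thus had one near an inner start.

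Peaks mostly lay at the transcription start, at members as at all genes. A strand was known for 69 members. Of those with a boundary peak, 51 of 61 in the TGF-β1 list and 58 of 67 in the control list had the midpoint of their highest peak nearer to the start than to the other end. The same held for 79.7% and 80.2% of all genes with a strand and a peak, which is near the shares of the members. The peak covered the start base at 38 of 61 members in the TGF-β1 list (62.3%), against 42.9% of all genes with a strand and a peak, and at 48 of 67 in the control list (71.6%), against 47.5%. Among peaks at the start the median midpoint was at -140.5 bp, upstream of it, in the TGF-β1 list (33 upstream, 18 downstream) and at -5.25 bp in the control list (30 upstream, 28 downstream). Strong peaks had midpoints upstream in 10 of 13 and in 9 of 13 members.

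**Figure D2:**
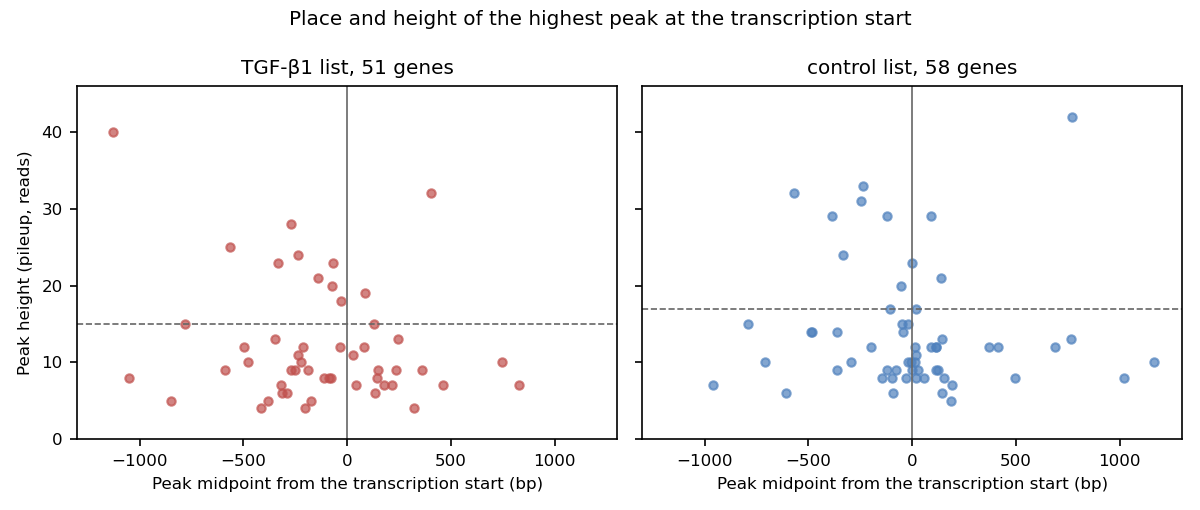
Distance of the midpoint of the highest peak from the transcription start (bp, negative upstream) against peak height (pileup, reads), for the 51 and 58 members whose highest peak lay at the start, in the TGF-β1 list (left) and the control list (right). Dashed lines mark the strong heights; most points above them lie left of 0, and the point at the top left of the TGF-β1 panel is NDUFS6.

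Most strong peaks of subunit genes also lay within 1 kb of an end of another protein-coding gene, which is called sharing here. Of the 16 strong members in the TGF-β1 list, 15 shared their highest peak with another protein-coding gene (93.8%), against 34.8% of all genes with a strong peak. In the control list it was 15 of 19 (78.9%), against 34.9%. The 4 unshared ones were NDUFB4, NDUFS5, NDUFV1 and SDHC. An end of another protein-coding gene lay within 1 kb of an end of 40 members (45.98%), against 28.5% of all genes. Among those 40, 14 were strong in each list (35.0%), against 22.3% and 24.6% of all genes with such a neighbour. Among the other 47 members, 2 were strong in the TGF-β1 list (4.26%) and 5 in the control list (10.6%), against 13.1% and 14.0% of all genes without such a neighbour. Between members with and without a neighbour, boundary peaks of any height differed less, at 35 and 39 of the 40, against 85.6% and 87.7% of all genes with a neighbour, and at 38 and 43 of the 47, against 70.2% and 70.4% of those without. Strong peaks of members were also wide, with medians of 931.5 and 907.5 bp against 701 and 681 bp for members' peaks of any height (69 members with a strand). A wide peak reaches more gene ends, and its part in the sharing was not tested.

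**Figure D3:**
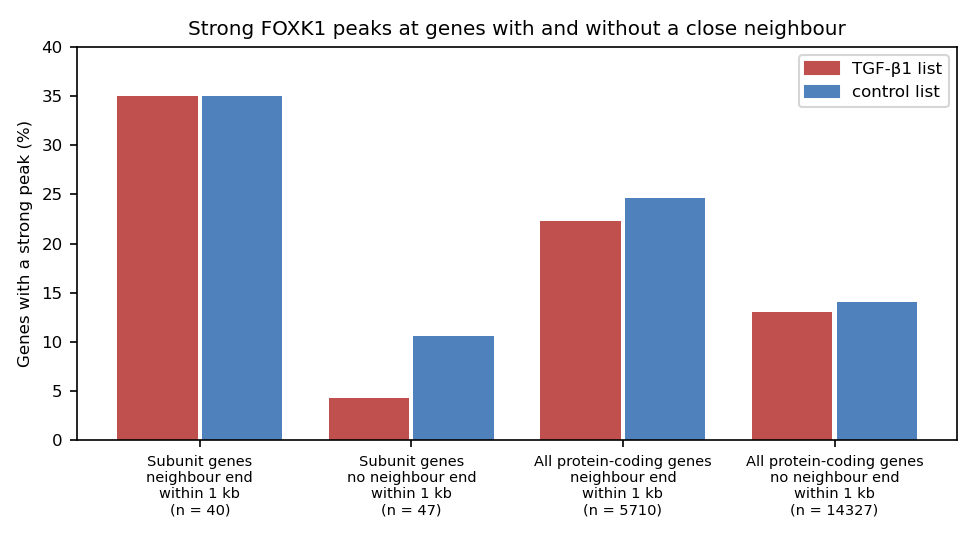
Share of genes with a strong boundary peak (%) among subunit genes and among all protein-coding genes, split by whether the end of another protein-coding gene lies within 1 kb, in the TGF-β1 list (red) and the control list (blue). Subunit genes with such a neighbour reach 35.0% in both lists, and those without stay at 4.26% and 10.6%.

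Many of these pairs were start-to-start. Of the 69 members with a strand, 21 had the start of a gene on the other strand within 1 kb of their own (30.4%), against 12.7% of all genes with a strand. Of these 21, 8 were strong in each list (38.1%), against 29.9% and 32.6% of all such genes. Of the other 48 members, 6 were strong in each list (12.5%), against 14.8% and 16.2%. The control count of 8 includes NDUFA7, whose strong peak lay at its downstream end and not at the paired starts, while the highest peaks of the other 7, and of all 8 in the TGF-β1 list, lay at the start. The partners included IK and CPSF2 of RNA processing, RPS28 of the cytosolic ribosome and GABPA, an ETS factor known to act on respiratory genes. The starts of GABPA and ATP5PF, the gene of coupling factor 6, lay 82 bp apart. In each list the same peak gave the height of both genes, 9 in the TGF-β1 list and 10 in the control list.

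Member promoters more often held letters of NRF1, ETS, YY1 and CRE motifs than all promoters did, as counts without a test. The window was 250 bases before to 50 after the start, read on both strands, for 69 members and 15843 protein-coding genes in the RefSeq table. The core of a forkhead site, GTAAACA, was found in 1 member promoter (1.45%), against 2.67% of all promoters and 6.45% of promoters of genes strong in both lists. That member was COX7A2L, and 0 of the 9 members strong in both lists with a promoter in the table held it. The COX7A2L window was at its outer start, with no TGF-β1 boundary peak and a control height of 5. Its inner start, near the higher peaks, was not searched. The NRF1 core CGCATGCG was found in 9 member promoters (13.0%), against 2.89% of all, and CCGGAAG for ETS factors in 20 (29.0%), against 14.2%. The YY1 motif AAGATGGCG was found in 8 (11.6%), against 2.69%, and 7 of these lost it when the bases after the start were left out. TGACGTCA, the cyclic AMP response element, was in 5 (7.25%), against 2.56%, TCAAGGTCA of oestrogen-related receptors in 1 (SDHD, 1.45%), against 0.234%, and GGGCGG of SP factors in 40 (58.0%), against 58.3%. Of the 9 members strong in both lists, 3 held the NRF1 core (33.3%), against 5.07% of promoters of all genes strong in both lists. The ETS motif was in 5 of the 9 (55.6%), against 20.6%. Without the bases after the start the ETS motif was in 3 of the 9, against 17.2%. Base composition was close to that of all promoters, with a median GC content of 61.0% against 62.7% and a median of 23 CpG sites against 22.

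A motif in the window need not lie under the peak. The control peak covered all 250 bases before the start of NDUFS6 and the TGF-β1 peak none of them. Both peaks covered all 250 at SDHD, ATP5ME and ATP5MK, and 250 and 243 of them at UQCRH.

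Among genes that assemble the complexes the share with a strong peak was higher than among the subunits, a difference that was not tested. Genes for assembly factors and the inhibitor of ATP synthase numbered 56. A boundary peak lay at 54 in the TGF-β1 list (96.4%) and 55 in the control list (98.2%), against 74.6% and 75.3% of all genes. Strong peaks lay at 17 (30.4%) and 21 (37.5%), against 15.7% and 17.0% of all genes. By complex, strong peaks lay at 5 and 10 of 16 assembly genes for complex I, 0 and 1 of 4 for complex II, 1 and 1 of 9 for complex III, 10 and 9 of 23 for complex IV, and 1 and 0 of 4 for complex V. Complex IV thus had 1 strong gene among its 17 subunits in each list (5.88%), against 15.7% and 17.0% of all genes. Of its assembly genes, 43.5% and 39.1% were strong. The 2 sets differ in make-up. Another gene end lay within 1 kb of 13 of the 23 assembly genes and of 4 of the 17 subunits. The subunits also include copies known from particular tissues, none of them strong. The part of either in the contrast was not tested. COA3, a translation factor for its COX1 subunit, had 26 and 34, from peaks shared with CNTD1 and WNK4. COA6, of copper delivery, had 31 and 28, and COX17, the copper chaperone, 21 and 25, from unshared peaks. Among the assembly factors of complex I, NDUFAF2 had 19 and 33, from peaks shared with ERCC8. NDUFAF6 had 331 and 282, the highest values among these assembly genes, from peaks shared with the cyclin gene CCNE2. CYCS, the carrier cytochrome c, had 17 in the TGF-β1 list and 8 in the control list at places that did not overlap. Its TGF-β1 peak was shared with SPMIP4.

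Of 14 genes for nuclear regulators and for the mitochondrial DNA machinery, all had a boundary peak and 7 a strong one in each list, 6 of them in both. TFB2M, a mitochondrial transcription factor, had 91 in the TGF-β1 list and 112 in the control list, from peaks shared with CNST. TWNK, the mitochondrial helicase, had 43 and 49, from peaks shared with MRPL43. TFAM, which packages mitochondrial DNA, had 29 and 20, from peaks that no other protein-coding gene shared. NRF1, a regulator of respiratory genes, had 7 and 12, ESRRA, an oestrogen-related receptor, 12 and 11, and PPARGC1A, their coactivator, 11 and 9, all below the strong heights. PPRC1, a coactivator of the same family, had 6 and 34, and its control peak was shared with NOLC1.

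**Figure D4:**
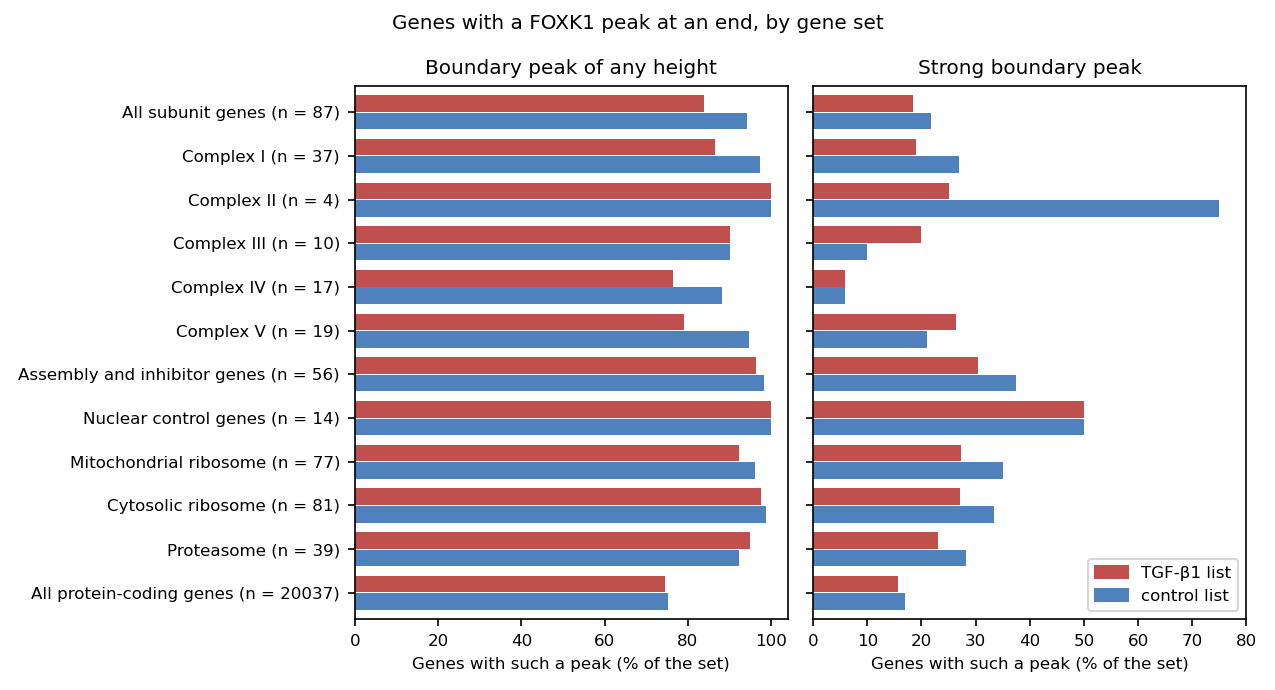
Share of genes (%) with a FOXK1 boundary peak of any height (left) and with a strong one (right), for the subunit genes, each complex, assembly genes, nuclear control genes, 3 other housekeeping families and all protein-coding genes, in the TGF-β1 list (red) and the control list (blue). Complex IV has the lowest strong share of the complexes, 5.88% in both lists, and 7 of the 14 nuclear control genes are strong in each. Among all genes the strong shares are 15.7% and 17.0%.

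Other housekeeping families give a scale for these shares. Among 77 genes of the mitochondrial ribosome, 92.2% had a boundary peak in the TGF-β1 list and 96.1% in the control list, and 27.3% and 35.1% a strong one. The shares of all genes were 74.6% and 75.3%, and 15.7% and 17.0% for strong peaks. Among 81 cytosolic ribosomal protein genes the strong shares were 27.2% and 33.3%, and among 39 proteasome subunit genes 23.1% and 28.2%. Those of the subunit genes, 18.4% and 21.8%, were the lowest of the 4 sets in each list. Split by neighbours, mitochondrial ribosome genes had strong shares of 31.0% and 42.9% with another gene end within 1 kb, against 22.9% and 25.7% without, the same direction as in the subunit genes. Cytosolic ribosome genes ran the other way, with 20.0% and 23.3% against 31.4% and 39.2%, as did proteasome genes, with 15.4% and 23.1% against 26.9% and 30.8%. No test of these differences was made.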

How the data were processed

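Fixed cells were treated with MNase and then sonicated, per the labels' protocols. Peaks were called with MACS2 2.1.1.20160309 on hg38 from reads made with bcl2fastq 2.17, per the submitters' processing notes. The deposited files list each peak's place and a signal, a whole number of at least 3 that was read as the pileup height in reads. Aligner, read filters, call threshold and read depth are not given in the sources used here. Column positions were read as counting from 0. Peaks on 24 chromosomes were joined to RefSeq genes (GRCh38.p14, the coordinates of hg38) with Python 3.11.15, numpy 2.4.6 and pandas 2.3.3, and figures were drawn with matplotlib 3.10.9. Strand, starts and sequence came from a RefSeq promoter table, which held 69 of 87 members. Where a gene had several entries the one nearest its outer end was used. Of several peaks at a gene the highest gave its height. Peak assignment and motif search were tested on simulated data. The members, lists and tests were chosen with earlier results of these data known. Named are members strong in either list, the 3 highest TGF-β1 peaks of each complex, and members without a peak in 1 or both lists. Others are named as examples, after their values were seen. The neighbour, inner-start and start-to-start comparisons were chosen after the data were seen. The values of 1 member are counted but not reported here by name.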

Additional observations from a re-analysis of the deposited data

How the results depend on the processing

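Counts followed the height asked for. With a minimum height of 10, boundary peaks were left at 34 members in the TGF-β1 list, 51 in the control list and 29 in both. The shares in the single lists were 39.1% and 58.6%, against 32.7% and 39.9% of all genes. With strong peaks defined by the 5000th highest peak, 9 and 11 members were strong, and by the 20000th 28 and 29, of which 19 in both lists. The counts at these ranks, and the 29, were not set beside shares of all genes. They show how counts moved with the cut, not how members compare with other genes. Leaving out bases after the start left 1 member promoter with the YY1 motif and 0 with that of oestrogen-related receptors. The other 59 recomputed counts stayed within 1.5 times, under windows of 500 bp and 2 kb, the start side alone, other member rules, other overlap and neighbour minimums, and starts counted from 1. Of heights at single genes, 20 of 264 changed. The planned move of NDUFA4 between complexes could not be run, since RefSeq now names it COXFA4, outside the rule; adding it, an alternative chosen after seeing the data, raised each count of boundary peaks by 1. Unknown depth limits every comparison of heights between lists. No paired analysis was possible because each condition had 1 FOXK1 library.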

Other observations

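A pair of genes formerly counted among the subunits lies outside the symbol rule. COXFA4, once NDUFA4 and now assigned to complex IV, had boundary peak heights of 7 in the TGF-β1 list and 12 in the control list. Its paralog COXFA4L2, once NDUFA4L2 and known as a target of hypoxia, had 15 and 16, on the strong side of the minimum of 15 in the TGF-β1 list and under that of 17 in the control list.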
